A study of Homo sapiens with 12 samples.

Results

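The collagen genes are the rows of the expression table whose name has the form COL, a number, A and a number, and 44 of the 58381 genes in the table bore such a name. A gene was called expressed when it reached 1 CPM (the depth-normalized unit of the deposited table, proportional to the reads of a gene per library) in at least 3 of the 12 libraries. By that rule 26 collagen genes were expressed, among 15236 expressed genes in all. The RNA came from 786-O, an established human clear cell renal carcinoma line that lacks functional VHL protein, and every group had received a lentiviral short hairpin. The control group carried a hairpin against GFP (shGFP) and each of the others carried 1 of 3 hairpins that target RARRES2, which encodes the secreted protein chemerin (shRARRES2_1, shRARRES2_2 and shRARRES2_3). Each group held 3 libraries, all 3 hairpin groups were compared with the same controls, and nothing in the labels says that replicates were separate infections or cultures, so the p-values measure the spread between these libraries, which may be technical.

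Collagens are triple helical proteins of the extracellular matrix, built from 3 alpha chains that are each the product of 1 gene. Fibrillar collagens (types I, II, III, V, XI, XXIV and XXVII) form or join the cross-striated fibrils of connective tissue, type IV forms the sheet of the basement membrane on which kidney epithelium rests, and type VI forms beaded microfibrils in the matrix around cells. Others decorate fibrils, anchor the basement membrane to the tissue beneath, or stay in the cell membrane. Chains are hydroxylated and folded in the endoplasmic reticulum, and many are trimmed and crosslinked outside the cell.

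Recovered depth was 12599424 to 23594195 reads on genes, and 3 reads, the limit that a count of 0 allows, corresponded to 0.131 to 0.223 CPM. RARRES2 itself was at 587 ± 192 CPM (SD, n = 3) with shGFP, 39.7 ± 1.91 with shRARRES2_1, 73.2 ± 19.5 with shRARRES2_2 and 44.8 ± 4.72 with shRARRES2_3, and it fell with each hairpin (limma adjusted p = 9.49e-05, 0.00165 and 0.00016). All 8 genes listed as typical of 786-O cells, VIM and EPAS1 with the highest level in any single library, were above 1 CPM in every library. The library of shGFP replicate 2 stood apart: its summed level of 14 keratinocyte markers was 547 CPM against 54.7 to 149.6 CPM in the other 11 libraries, led by KRT5 at 168.7 CPM and KRT14 at 119 CPM, while KRT1, LOR and KRTDAP had no read in any library. It held 9 of those 14 markers at 1 CPM or more, against 2 to 6 in the others. The summed level of 10 fibroblast markers that are not collagens was 34.5 CPM there, with 8 markers at 1 CPM or more, and 75.5 CPM in shRARRES2_2 replicate 1, where LUM alone gave 70.2 CPM; in the other libraries it lay between 2.52 and 19.0 CPM, with 1 to 4 markers at 1 CPM. POSTN, the next highest fibroblast marker, reached 12.5 CPM in shGFP replicate 2. Summed markers of endothelium (PECAM1 and KDR the highest) and of leukocytes (CD14 and ITGAM the highest) did not exceed 5.67 and 2.97 CPM in any library. In bulk RNA, fewer cells that make a collagen and less RNA per cell cannot be told apart.

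Before the values, the stretches upstream of 4 collagen genes are shown, because these genes had lower levels with shRARRES2_1 than in every control library. They are those of the 7 such genes that have a window on the plus strand in the promoter table, and the first of 2 windows is used for COL18A1 and COL5A1. COL11A2, on the minus strand, had 4 windows there, of which 2 held GGGCGG, 2 held CCAAT and none held TATAAA, and COL6A1 and COL20A1 are named only. The stretches are the plus-strand bases of the RefSeq promoter table (GRCh38.p14) that precede any annotated exon, at chr21:46097862-46098096 for COL6A2, chr21:45404915-45405136 for COL18A1, chr9:114155287-114155536 for COL27A1 and chr9:134641553-134641773 for COL5A1. Capitals mark GGGCGG (the GC box), CCAAT and TATAAA on either strand, and neighbouring GC boxes may share bases.
COL6A2: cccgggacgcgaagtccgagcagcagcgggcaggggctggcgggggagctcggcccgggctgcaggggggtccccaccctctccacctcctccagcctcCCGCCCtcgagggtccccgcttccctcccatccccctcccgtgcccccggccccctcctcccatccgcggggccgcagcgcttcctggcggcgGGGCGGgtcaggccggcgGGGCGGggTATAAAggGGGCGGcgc
COL18A1: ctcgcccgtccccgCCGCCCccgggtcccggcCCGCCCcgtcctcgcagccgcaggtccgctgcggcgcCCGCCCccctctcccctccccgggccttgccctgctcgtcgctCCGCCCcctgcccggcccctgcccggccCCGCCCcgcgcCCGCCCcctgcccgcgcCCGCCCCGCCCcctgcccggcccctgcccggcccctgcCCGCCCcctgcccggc
COL27A1: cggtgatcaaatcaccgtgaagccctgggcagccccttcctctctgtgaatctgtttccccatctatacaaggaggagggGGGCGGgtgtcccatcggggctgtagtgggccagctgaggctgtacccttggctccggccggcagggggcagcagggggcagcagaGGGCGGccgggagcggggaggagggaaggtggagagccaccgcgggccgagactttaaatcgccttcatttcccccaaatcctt
COL5A1: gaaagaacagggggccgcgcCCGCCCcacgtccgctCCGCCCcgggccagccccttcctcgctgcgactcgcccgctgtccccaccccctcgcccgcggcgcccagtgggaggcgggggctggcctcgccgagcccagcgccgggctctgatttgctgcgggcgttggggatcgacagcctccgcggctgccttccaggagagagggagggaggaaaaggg
The COL6A2 stretch held 4 GC boxes and 1 TATAAA, and the COL18A1 stretch, with a GC content of 88.7%, held 9 GC boxes. In the COL27A1 and COL5A1 stretches there were 2 GC boxes each. None of the 4 held CCAAT, and ACGTG, the core of hypoxia response elements, was found once, in that of COL5A1.

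The table covered 18 of the 26 expressed collagen genes, with 23 windows of 300 bases (250 before and 50 after a start), and COL6A1 was not among them. GGGCGG occurred in 16 of the 23 windows, against 45.0% of all 35116 windows of the table. TATAAA occurred in 5 (11.5% of all windows), CCAAT in 6 (34.6%), ACGTG in 6 (21.4%) and GCGTG, the other form of the hypoxia core, in 9 (36.5%). The windows of COL6A3 and COL4A4, and that of COL11A2 at chr6:33193470-33193769, held none of these 5 motifs, searched on both strands. The 23 windows are not independent: COL11A2 has several, those of COL5A1 nearly coincide, and those of COL4A1 and COL4A2 and of COL4A3 and COL4A4 overlap. A motif in shared bases is therefore counted more than once. A match is a description of these letters, not of a bound site.

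The collagen transcripts of 786-O cells were mostly those of type VI, type VII, type XVIII and type IV collagen. Per kilobase of merged exon length, which allows genes to be compared, COL6A2 had the highest mean over the 12 libraries at 164 CPM per kb, followed by COL6A1 at 141 and COL7A1 at 67.7. COL6A3 stood at 45.6 CPM per kb, COL18A1 at 28.0, COL4A2 at 22.5, COL4A1 at 21.8, COL27A1 at 12.8 and COL12A1 at 12.1. These 9 genes made up 95.6% of the collagen CPM per kb. The type I and III chains that dominate fibroblast matrix were low: COL1A1 was at 1.18 CPM per kb, COL1A2 at 0.663 and COL3A1 at 0.474. COL4A1 and COL4A2 were close neighbours in this order, with ranges over libraries that overlapped, as did those of COL6A1 and COL6A2 and of COL27A1 and COL12A1.

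**Figure D1:**
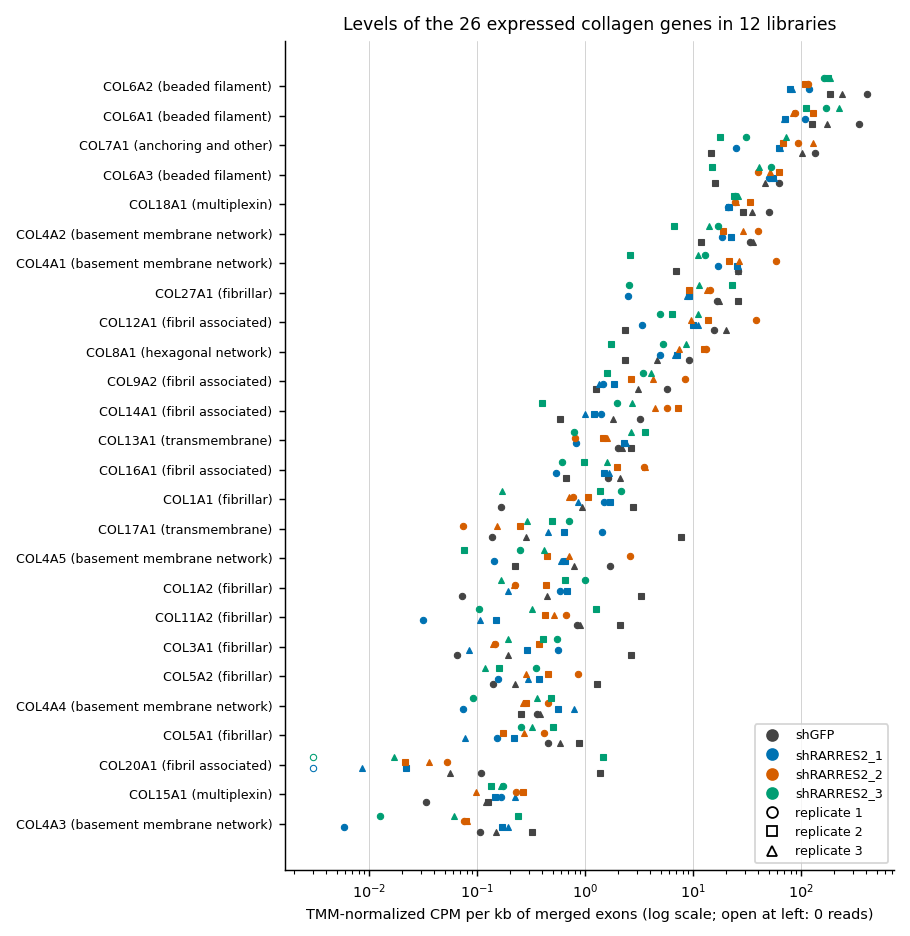
Level of each of the 26 expressed collagen genes (vertical axis, with its class) in each of the 12 libraries, in CPM per kb of merged exons on a log scale; colour gives the hairpin group and symbol the replicate, and open symbols at the left edge are 0 reads. COL6A2 and COL6A1 lie at the top, COL17A1 has 1 library far above the rest, COL20A1 has 2, and the type I chains are spread over the libraries.

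Of the 26 expressed genes, 15 reached 1 CPM in every library. By class, 3 of 5 type VI (beaded filament) genes, 5 of 6 type IV genes, 7 of 11 fibrillar genes, 5 of 10 fibril associated genes, 2 of 4 transmembrane genes, both multiplexin genes, 1 of 3 hexagonal network genes and 1 of 3 anchoring or other genes were expressed. The other 18 did not meet the rule: COL2A1, COL4A6, COL5A3, COL6A5, COL6A6, COL8A2, COL9A1, COL9A3, COL10A1, COL11A1, COL19A1, COL21A1, COL22A1, COL23A1, COL24A1, COL25A1, COL26A1 and COL28A1. COL19A1 had no read in any library. COL11A1 and COL28A1 came closest, with 2 libraries each at 1 CPM, and COL20A1 passed with exactly 3. COL21A1, a fibril associated collagen, was at 13.0 CPM in shRARRES2_3 replicate 3 and between 0 and 0.212 CPM in the other 11 libraries.

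The summed level of all collagen genes was 6167 ± 2721 CPM with shGFP (SD, n = 3), 3826 ± 318 with shRARRES2_1, 5213 ± 479 with shRARRES2_2 and 3996 ± 1009 with shRARRES2_3. The controls ran from 3390.4 to 8828 CPM a range that held all libraries of shRARRES2_1 and shRARRES2_2, whereas the lowest library of shRARRES2_3, at 2929 CPM, lay below it. Type VI genes took 64.3% to 72.9% of the collagen CPM per kb in the control libraries, 54.5% to 73.1% with shRARRES2_1, 44.1% to 60.5% with shRARRES2_2 and 72.6% to 77.7% with shRARRES2_3. With shRARRES2_2 all 3 shares lay below those of the controls.

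No collagen gene passed an adjusted p of 0.05 (limma on log2(CPM + 1), Benjamini-Hochberg over all genes) against shGFP with shRARRES2_1, where 0.171% of all genes tested passed, with shRARRES2_2 (0.0459%), with shRARRES2_3 (0.00656%) or for the mean of the 3 hairpins (0.00656%). None passed the moderated F-test between the 3 hairpins either (0.249%). At an unadjusted p under 0.05, 6 of 26 were lower with shRARRES2_1 (7.86% of all genes), 3 were lower (5.48%) and 1 higher (8.20%) with shRARRES2_2, 3 had such a p with shRARRES2_3, where 3.32% of all genes had one in either direction, and 6 were lower for the mean of the hairpins (5.68%). In the F-test 5 collagen genes had an unadjusted p under 0.05 (11.0% of all genes). The edgeR quasi-likelihood test on recovered reads called 0 collagen genes in each of the 5 comparisons, with 7, 5, 4, 8 and 7 at an unadjusted p under 0.05. DESeq2 on the same reads called 5, 1, 0, 1 and 1, which are named with their values below. In each comparison DESeq2 also called more genes of the whole table than limma did, with the counts given at the end. The share of all genes at such an unadjusted edgeR p is not given, so those edgeR counts cannot be set against it.

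The log2 change (on the log2(CPM + 1) scale throughout) was below 0 for 20 of 26 collagen genes with shRARRES2_1 (47.8% of all genes), 12 with shRARRES2_2 (44.8%), 24 with shRARRES2_3 (49.7%) and 18 for the mean of the hairpins (46.8%). The median over the 26 genes was −0.36, 0.01, −0.45 and −0.40, against 0.04, 0.07, 0.00 and 0.04 for all genes tested. These 4 comparisons share their control libraries. Leaving out 1 library at a time, the count below 0 ran from 15 to 21 with shRARRES2_1, from 12 to 16 with shRARRES2_2 and from 19 to 24 with shRARRES2_3; the lowest of the first of these, 15, came without shRARRES2_1 replicate 1. Scaling every library to a common total shifted the median of all genes by −0.10 with shRARRES2_2, by −0.05 with shRARRES2_1 and by −0.09 with shRARRES2_3, and turned the sign of COL1A1 and COL4A4 with shRARRES2_2, of COL1A1 with shRARRES2_3, and of COL12A1 and COL4A1 for the mean of the hairpins.

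**Figure D2:**
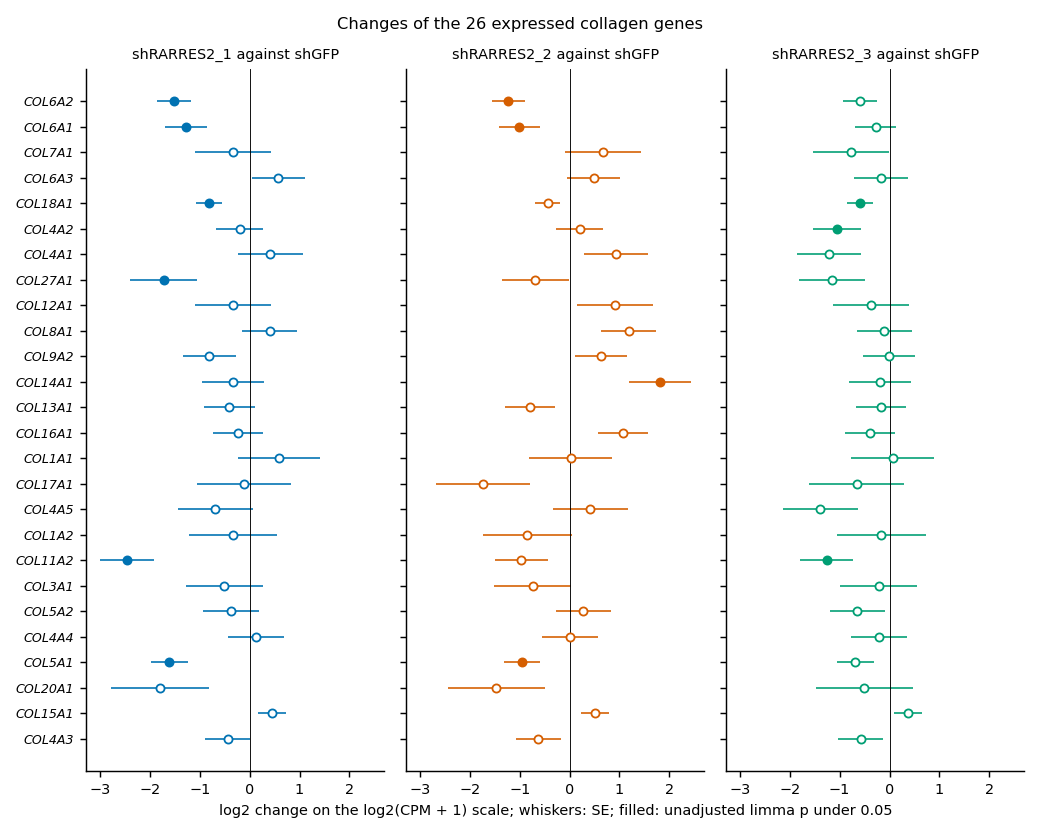
Log2 change of each of the 26 expressed collagen genes against shGFP for each hairpin (horizontal axis, log2(CPM + 1) scale, whiskers SE), ordered by level per kb; filled points have an unadjusted limma p under 0.05 and none passed after adjustment. With shRARRES2_1 the filled points are COL6A2, COL6A1, COL18A1, COL27A1, COL11A2 and COL5A1, all below 0, and with shRARRES2_3 the points of 24 of 26 genes lie below 0.

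Every library of shRARRES2_1 was below every control library for 7 collagen genes (15.0% of all genes) and above for 1 (17.0%). The corresponding counts with shRARRES2_2 were 7 (11.7%) and 1 (16.4%), and with shRARRES2_3 they were 2 (3.63%) and 1 (3.03%). With all 9 hairpin libraries together, 1 collagen gene, COL6A2, was below every control library, which held for 0.729% of all genes. The 7 with shRARRES2_1 were COL5A1, COL6A1, COL6A2, COL11A2, COL18A1, COL20A1 and COL27A1. Replicates 2 and 3 of shRARRES2_1 had nearly alike counts, so its lack of overlap and its p-values rest on fewer than 3 distinct libraries. The 7 with shRARRES2_2 were COL4A3, COL5A1, COL6A2, COL11A2, COL13A1, COL20A1 and COL27A1, and the 2 with shRARRES2_3 were COL6A2 and COL18A1. The genes above every control library were COL15A1 with shRARRES2_1 and with shRARRES2_3, and COL14A1 with shRARRES2_2. Some of these genes lay near the rule of 1 CPM. COL20A1 met it in only 3 libraries and averaged 0.113 CPM with shRARRES2_1 and 0.404 CPM with shRARRES2_2. COL4A3 met it in 5 libraries and averaged 0.714 CPM with shRARRES2_2, against 1.77 CPM with shGFP. COL15A1 was at 0.223 to 0.831 CPM in the controls, so it met the rule through hairpin libraries only. For such genes the lack of overlap rests on few reads and depends in part on the filter.

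Type VI collagen is made of COL6A1, COL6A2 and a longer chain such as COL6A3. Both short chains were lower with shRARRES2_1 than in every control library, and COL6A3 was not. COL6A2 (chr21:46098097-46132849, GRCh38) was at 2178, 1007 and 1288 CPM in the 3 shGFP libraries, 632, 428 and 442 with shRARRES2_1, 617, 591 and 605 with shRARRES2_2, and 874, 949 and 1001 with shRARRES2_3. All hairpin libraries lay below all controls, the narrowest gap being between 1001 CPM in shRARRES2_3 replicate 3 and 1007 CPM in shGFP replicate 2. The log2 change was −1.52 ± 0.34 (SE) with shRARRES2_1 (adjusted p = 0.103, limma), −1.22 ± 0.34 with shRARRES2_2 (adjusted p = 0.217) and −0.59 ± 0.34 with shRARRES2_3 (adjusted p = 0.876). For the mean of the hairpins it was −1.11 ± 0.27 (adjusted p = 0.383). DESeq2 gave an adjusted p of 0.000267, 0.00258 and 0.00267 for COL6A2 with shRARRES2_1, with shRARRES2_2 and for the mean of the hairpins.

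COL6A1 (chr21:45981737-46005050) was at 1844, 678 and 927 CPM in the controls, 578, 379.7 and 372 with shRARRES2_1, 467, 684 and 447 with shRARRES2_2, and 903, 596 and 1198 with shRARRES2_3. The libraries of shRARRES2_1 lay below all controls, those of shRARRES2_2 overlapped them by 1 library, and those of shRARRES2_3 were spread across them. Its log2 change with shRARRES2_1 was −1.27 ± 0.42 (limma adjusted p = 0.221; DESeq2 adjusted p = 0.0308). COL6A3 (chr2:237324003-237414375) was at 1216, 315 and 916 CPM with shGFP, 985, 1081 and 1096 with shRARRES2_1, 783, 1215 and 1001 with shRARRES2_2, and 1037, 293 and 795 with shRARRES2_3. Its groups all overlapped, and its lowest libraries were replicate 2 of shGFP and of shRARRES2_3. The log2 change of COL6A3 was 0.58 ± 0.54 with shRARRES2_1 and 0.48 ± 0.54 with shRARRES2_2 (limma adjusted p = 0.552 and 0.682).

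The ratio of COL6A3 to COL6A1, per kb, was 0.126 to 0.269 in the controls, 0.464 to 0.802 with shRARRES2_1, 0.457 to 0.610 with shRARRES2_2 and 0.134 to 0.312 with shRARRES2_3. The first 2 hairpin groups did not overlap the controls, and the third did. With shRARRES2_1, 15.0% of all genes had every library below every control library, and 17.0% had every library above. With shRARRES2_2 these shares were 11.7% and 16.4%. The share of other gene ratios without overlap is not given. The difference in mean log2 ratio was 1.85 and 1.49 for the first 2 groups, each with an exact two-sided permutation p of 0.1, the smallest that 3 against 3 libraries can give; this ratio was chosen after its values were seen. The ratio of COL6A1 to COL6A2 lay between 0.633 and 1.21 in all libraries, with every group overlapping the controls.

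**Figure D3:**
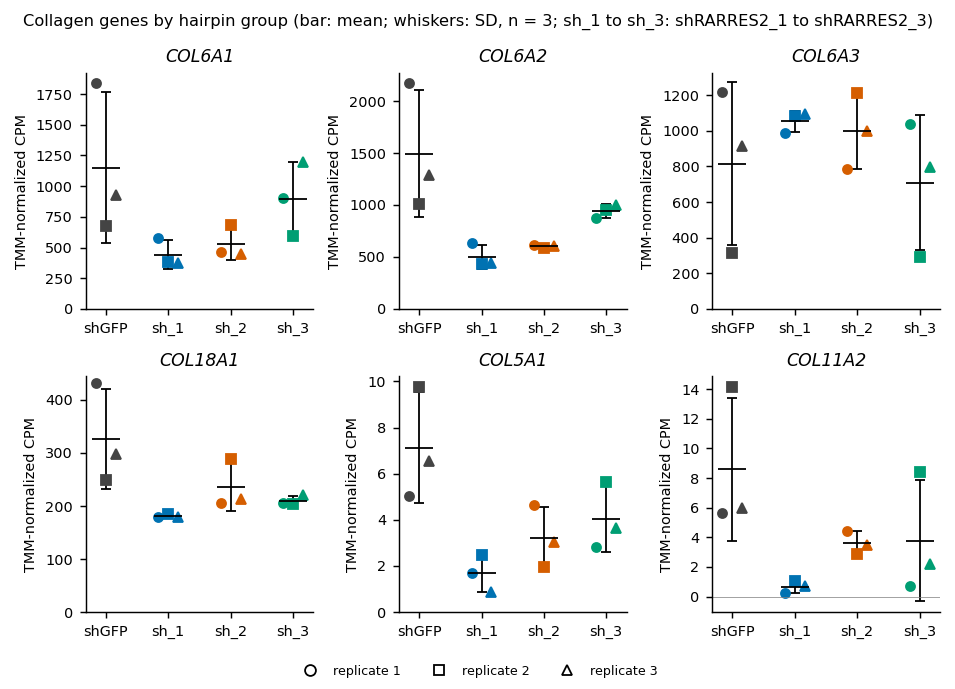
Level in CPM (linear vertical axes from 0, or just below it for COL11A2, where a whisker passes the line at 0) of the type VI chains, COL18A1, COL5A1 and COL11A2 by hairpin group, with shRARRES2 shortened to sh on the axis; points are libraries with the symbol giving the replicate, bars the mean and whiskers the SD (n = 3). COL6A2 is the gene whose 9 hairpin libraries all lie below the controls, while COL6A3 overlaps between all groups.

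The products of the multiplexin genes sit in basement membranes and release antiangiogenic C-terminal fragments. COL18A1, the source of endostatin (chr21:45405137-45513720), was at 432, 249 and 298 CPM with shGFP, 179, 185 and 179 with shRARRES2_1, 206, 289 and 214 with shRARRES2_2, and 206, 203 and 220.4 with shRARRES2_3. The libraries of shRARRES2_1 and shRARRES2_3 lay below all controls and close together. Its log2 change was −0.81 ± 0.26 with shRARRES2_1 (limma adjusted p = 0.219; DESeq2 adjusted p = 0.0317), −0.44 ± 0.26 with shRARRES2_2 and −0.60 ± 0.26 with shRARRES2_3 (limma adjusted p = 0.452 and 0.876). COL15A1 was near the detection rule, at 0.618 ± 0.342 CPM with shGFP and 1.19 ± 0.263, 1.32 ± 0.593 and 1.06 ± 0.14 with the 3 hairpins.

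COL18A1, COL6A1 and COL6A2 lie on the same strand of chromosome 21, within 45405137 to 46132849. The other genes tested in that interval were SLC19A1, a folate carrier, and AL133493.2, with log2 changes of 0.72 and 0.38 with shRARRES2_1, 0.67 and 0.63 with shRARRES2_2, and 0.74 and −0.42 with shRARRES2_3. SLC19A1 lies on the opposite strand and shares 1401 exon bases with COL18A1, 16.4% of the exon length of COL18A1. The strand setting of the counting is not stated, and reads from that stretch cannot be told apart. Of the 26 expressed collagen genes, 5 share exon bases with a gene on the opposite strand, and the shared part of the other 4 was at most 2.06%.

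Type IV collagen forms the basement membrane network, in which 2 COL4A1 chains join 1 COL4A2 chain in most tissues. COL4A1 (chr13:110148963-110307233) was at 386, 103 and 386 CPM with shGFP, 253, 377 and 385 with shRARRES2_1, 858, 318 and 390.3 with shRARRES2_2, and 191, 38.5 and 165 with shRARRES2_3. COL4A2 (chr13:110305812-110513209) was at 642, 227 and 696 CPM, 360.1, 434 and 433, 768, 362 and 554, and 329, 127 and 269 CPM in the same order. Both were lowest in shRARRES2_3 replicate 2 and, among the controls, in shGFP replicate 2, and highest in shRARRES2_2 replicate 1. With shRARRES2_3 the log2 change was −1.21 ± 0.64 for COL4A1 (limma adjusted p = 0.876) and −1.05 ± 0.47 for COL4A2 (unadjusted p = 0.0452, limma adjusted p = 0.876). Between the 3 hairpins COL4A1 had an unadjusted p of 0.0149 (adjusted p = 0.304, limma F-test).

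The starts of COL4A1 and COL4A2 in RefSeq lie head to head, 127 bases apart. Per kb, the ratio of COL4A1 to COL4A2 was 0.591 to 0.788 in the controls, 0.918 to 1.16 with shRARRES2_1, 0.923 to 1.46 with shRARRES2_2 and 0.396 to 0.805 with shRARRES2_3. As for type VI, the first 2 hairpin groups lay above the controls without overlap, and shRARRES2_3 overlapped them. Lack of overlap was common for single genes with those 2 hairpins, and the share of other gene ratios is not given. The mean log2 ratio differed from that of the controls by 0.62 with shRARRES2_1 and by 0.73 with shRARRES2_2, each with an exact two-sided permutation p of 0.1, and by −0.16 with shRARRES2_3 (exact p = 0.9). As the smallest p that these libraries can give, 0.1 only restates the lack of overlap, and the test was chosen after the values were seen. The minor chains were low: COL4A5 was at 8.51 CPM on average, from 0.898 CPM in shRARRES2_3 replicate 2 to 30.9 CPM in shRARRES2_2 replicate 1. COL4A4 and COL4A3, whose starts lie 419 bases apart head to head and whose chains build the mature glomerular membrane with COL4A5, averaged 3.65 and 1.14 CPM, and both were lowest in shRARRES2_1 replicate 1.

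**Figure D4:**
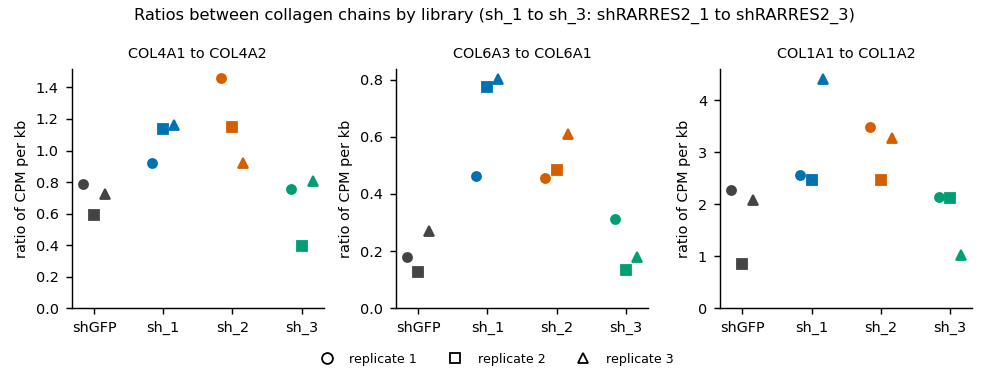
Ratio of CPM per kb between chains of 1 collagen type in each library (vertical axes from 0), by hairpin group, with the symbol giving the replicate. For COL4A1 to COL4A2 and COL6A3 to COL6A1 the 6 libraries of shRARRES2_1 and shRARRES2_2 lie above the 3 controls, and those of shRARRES2_3 overlap them.

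COL7A1, which builds the anchoring fibrils beneath epithelial basement membranes (chr3:48564073-48595267), differed more within groups than between them. It was at 1492, 162 and 1126 CPM with shGFP, 276, 696 and 703 with shRARRES2_1, 1031, 747 and 1432 with shRARRES2_2, and 339, 198 and 799 with shRARRES2_3. The lowest libraries were again replicate 2 of shGFP and of shRARRES2_3, the highest library was 9.21 times the lowest, and no limma adjusted p was under 0.685 against shGFP. COL12A1, a fibril associated collagen that bridges fibrils (chr6:75084326-75206051), was at 194, 29.1 and 250.5 CPM with shGFP, 41.8, 126 and 137 with shRARRES2_1, 473, 169.9 and 119 with shRARRES2_2, and 61.1, 79.1 and 138 with shRARRES2_3.

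COL27A1, a fibrillar collagen of cartilage (chr9:114155560-114312511), had the reverse order among the controls: 235, 361 and 242 CPM with shGFP, 35.2, 129 and 122 with shRARRES2_1, 201, 129 and 187 with shRARRES2_2, and 36.0, 319 and 158 with shRARRES2_3. Replicate 2 of shGFP and of shRARRES2_3 were the highest of their groups, and replicate 1 of shRARRES2_1 and of shRARRES2_3 the lowest of all. The log2 change was −1.72 ± 0.67 with shRARRES2_1 (unadjusted p = 0.0237, limma adjusted p = 0.255). With replicate 1 of shRARRES2_1 and of shRARRES2_3 left out together, a choice made after seeing the data, it was −1.12 ± 0.34 (limma adjusted p = 0.18).

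**Figure D5:**
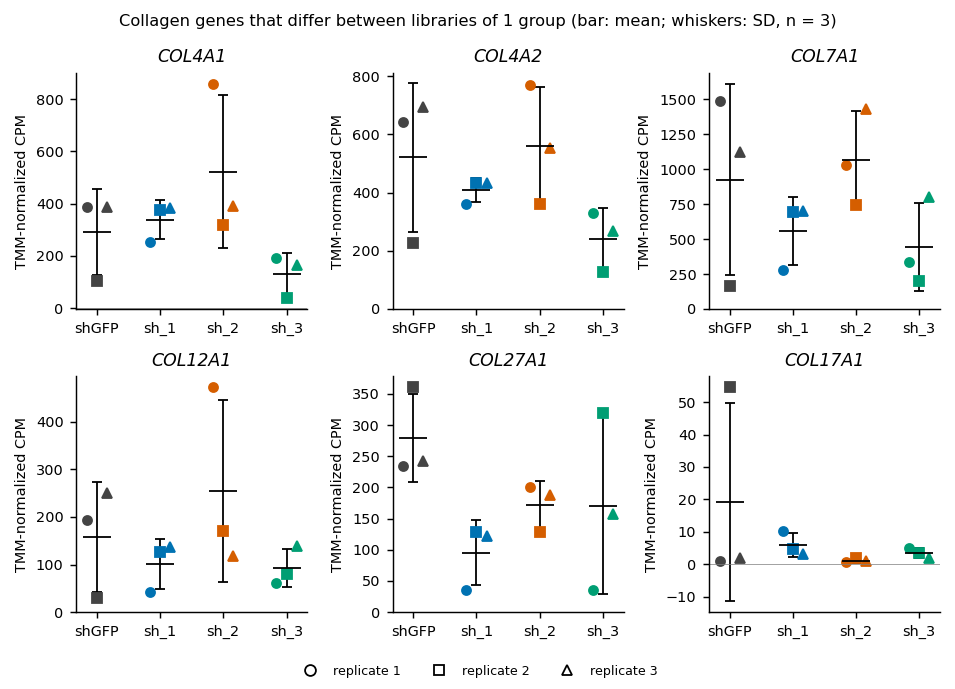
Level in CPM (vertical axes on a linear scale, from 0 except for COL17A1, whose whisker extends below the line at 0) of 6 collagen genes by hairpin group, with shRARRES2 shortened to sh on the axis; points are libraries with the symbol giving the replicate, bars the mean and whiskers the SD (n = 3). Replicate 2 of shGFP and of shRARRES2_3 is low for COL4A1, COL4A2 and COL7A1 and high for COL27A1, and COL17A1 is high in shGFP replicate 2 alone, at 54.6 CPM.

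The fibrillar collagens other than COL27A1 were scarce. COL1A1 was at 1.63, 27.5 and 9.14 CPM with shGFP, 14.7, 16.7 and 8.35 with shRARRES2_1, 7.62, 10.5 and 7.02 with shRARRES2_2, and 21.2, 13.5 and 1.68 with shRARRES2_3. COL1A1, COL1A2 (36.5 CPM) and COL3A1 (18.3 CPM) were each highest in shGFP replicate 2 and lowest in shGFP replicate 1, so the control group alone spanned all hairpin libraries. Their levels in shGFP replicate 2 stood beside the higher sums of fibroblast and keratinocyte markers in that library, and the part of those in the result was not tested. Per kb, COL1A1 to COL1A2 was 0.855 to 2.27 with shGFP and 2.47 to 4.42 with shRARRES2_1. It was 2.47 to 3.48 with shRARRES2_2 and 1.02 to 2.14 with shRARRES2_3. The first 2 hairpins again did not overlap the controls (exact permutation p = 0.1 each, the smallest possible). The share of other gene ratios without overlap is not given, and the test was chosen after the values were seen.

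COL5A1 and COL11A2 regulate the diameter of collagen fibrils, in tissues and in cartilage respectively. COL5A1 (chr9:134641774-134844843) was at 5.05, 9.77 and 6.57 CPM with shGFP, 1.70, 2.47 and 0.859 with shRARRES2_1, 4.65, 1.96 and 3.05 with shRARRES2_2, and 2.84, 5.64 and 3.63 with shRARRES2_3. Its log2 change with shRARRES2_1 was −1.61 ± 0.37 (limma adjusted p = 0.109; DESeq2 adjusted p = 0.00569). COL11A2 (chr6:33162681-33192499) was at 5.64, 14.1 and 5.99 CPM with shGFP, 0.212, 1.02 and 0.716 with shRARRES2_1, 4.44, 2.85 and 3.49 with shRARRES2_2, and 0.695, 8.43 and 2.19 with shRARRES2_3. For both genes the libraries of shRARRES2_1 and of shRARRES2_2 lay below all controls, and those of shRARRES2_3 overlapped them. COL11A2 had the largest log2 change of the 26 genes with shRARRES2_1, −2.46 ± 0.54 (limma adjusted p = 0.101; DESeq2 adjusted p = 0.00079). Its adjusted p with shRARRES2_1 was 0.0159 without shRARRES2_3 replicate 2 and 0.0395 without shRARRES2_3 replicate 1, libraries of another group that enter the estimate of the spread. COL5A2, the partner chain of COL5A1, averaged 2.92 CPM and was highest, at 9.51 CPM, in shGFP replicate 2. Per kb, the mean log2 ratio of COL5A1 to COL5A2 differed from the controls by −1.76 with shRARRES2_1 and by −1.675 with shRARRES2_2. Both groups overlapped the controls (exact permutation p = 0.2 each), as did shRARRES2_3, with a difference of 0.04 (exact permutation p = 0.8).

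COL14A1 is a fibril associated collagen that binds fibrils through their proteoglycans. It was at 27.7, 5.09 and 15.6 CPM with shGFP, 12.1, 10.4 and 8.64 with shRARRES2_1, 49.1, 62.0 and 38.6 with shRARRES2_2, and 17, 3.44 and 23.5 with shRARRES2_3. All libraries of shRARRES2_2 lay above every other library. The log2 change with shRARRES2_2 was 1.81 ± 0.62 (limma adjusted p = 0.282), and the F-test between the hairpins gave an unadjusted p of 0.00749 (limma adjusted p = 0.232; DESeq2 adjusted p = 0.0256).

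COL16A1, which joins fibrils and cell contacts, was at 15.0, 6.13 and 19.7 CPM with shGFP, 4.99, 13.8 and 15.3 with shRARRES2_1, 32.3, 18.2 and 33.2 with shRARRES2_2, and 5.62, 9.03 and 14.9 with shRARRES2_3. COL9A2, a cartilage fibril chain, was at 24.3, 5.35 and 13.0, then 6.16, 7.75 and 5.68, then 35.2, 11.3 and 17.8, and then 14.5, 6.68 and 17.3 CPM in the same order of groups. Both were highest in a library of shRARRES2_2, but their groups overlapped the controls. COL8A1, a short chain of vessel and corneal matrix, was at 86.8, 22.1 and 43.6 CPM with shGFP, 46.8, 67.1 and 63.7 with shRARRES2_1, 124, 119 and 69.7 with shRARRES2_2, and 50.02, 16.5 and 80.8 with shRARRES2_3. Its log2 change with shRARRES2_2 was 1.19 ± 0.55 (limma adjusted p = 0.368). COL20A1 reached 15.2 CPM in replicate 2 of shGFP and 16 CPM in replicate 2 of shRARRES2_3, and stood at 0 to 1.19 CPM in the other 10 libraries.

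The transmembrane collagens also varied by library. COL13A1, found at cell adhesions, was at 11.9, 15.6 and 13.0 CPM with shGFP, 4.83, 13.6 and 14.1 with shRARRES2_1, 4.71, 8.62 and 9.42 with shRARRES2_2, and 4.69, 21 and 15.6 with shRARRES2_3. It was lowest in replicate 1 of each hairpin group, and the libraries of shRARRES2_2 lay below all controls. COL17A1, a hemidesmosome protein of basal keratinocytes, was at 54.6 CPM in shGFP replicate 2 and between 0.529 and 10.1 CPM in the other 11 libraries, with a median over all 12 of 2.62 CPM. That library also had the highest sum of keratinocyte markers, whose part in the COL17A1 level was not tested.

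Across the family, shGFP replicate 2 lay outside the range of the other 2 controls for all 26 genes, above it for 12 and below it for 14. Over all expressed genes it lay outside for 80.8%, above for 37.6% and below for 43.2%. It was the highest of the 12 libraries for 9 collagen genes (10.7% of all expressed genes) and the lowest for 3 (14.4%). Compared with the other libraries of their own groups, shGFP replicate 2 and shRARRES2_3 replicate 2 were both the lowest for 10 collagen genes (28.5% of all expressed genes) and both the highest for 6 (21.2%). Replicate 1 of shRARRES2_1 and of shRARRES2_3 were both the lowest for 8 (35.1%) and both the highest for 2 (30.9%). With replicate 2 of shGFP and of shRARRES2_3 left out together, a choice made after seeing the data, 20, 16 and 19 collagen genes had a log2 change below 0 with shRARRES2_1, shRARRES2_2 and shRARRES2_3, against 49.6%, 46.0% and 49.9% of all genes. COL11A2 with shRARRES2_1 (adjusted p = 0.0443) and COL14A1 between the hairpins (adjusted p = 0.0382) then passed in limma.

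Of 64 genes listed as making, exporting, trimming, binding or breaking down collagen, 55 were expressed, 24 of them with a mean of 100 CPM or more. In limma 1 of the 55 was called, and only in the F-test between the hairpins, where 0.249% of all genes passed. Leaving out 1 library at a time, 0 to 1 were called with shRARRES2_1 and with shRARRES2_2, 0 with shRARRES2_3, 0 to 2 for the mean of the hairpins and 0 to 3 in the F-test. DESeq2 called 1, 5, 1, 1 and 5 in these comparisons, and edgeR called 0 against shGFP and 1 in the F-test. Over the whole table, too, DESeq2 called more genes than limma in each comparison, with its counts given at the end. The counts of called pathway genes are therefore not read as a result about these lists. The gene called in limma was DDR1, a receptor tyrosine kinase activated by collagen. It was at 88.4, 52.0 and 77.7 CPM with shGFP, 86.7, 85.2 and 84.4 with shRARRES2_1, 76.0, 43.8 and 64.9 with shRARRES2_2, and 20.2, 20.2 and 17.3 with shRARRES2_3. The libraries of shRARRES2_3 lay below all 9 others, and DDR1 differed between the hairpins (F-test adjusted p = 0.0125, limma). Against shGFP its log2 change with shRARRES2_3 was −1.84 ± 0.27 (limma adjusted p = 0.107; DESeq2 adjusted p = 5.62e-07). The call between the hairpins was lost in 5 alternatives, with limma adjusted p of 0.0581 with only the compared groups in the fit, 0.0704 with shRARRES2_1 replicates 2 and 3 averaged, and 0.0725, 0.0647 and 0.102 without shRARRES2_1 replicate 2, shRARRES2_1 replicate 3 and shRARRES2_3 replicate 3.

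Of 9 collagen receptors tested, 0 were called in limma against shGFP with any hairpin, whereas DESeq2 called DDR1 with shRARRES2_3. The median log2 change was −0.13 with shRARRES2_1, −0.30 with shRARRES2_2 and −0.53 with shRARRES2_3. The highest in CPM were ITGB1, the shared beta chain of collagen integrins, at 1294 CPM over the 12 libraries, MRC2, an uptake receptor for collagen fragments, at 417 CPM, and DDR1. The log2 change of MRC2 with shRARRES2_1 was −1.02 ± 0.41 (limma adjusted p = 0.266).

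Of 13 enzymes and partners of prolyl and lysyl modification tested, 0 were called in limma, with medians of −0.11, −0.10 and −0.08. P4HB, the beta subunit of prolyl hydroxylase, averaged 764 CPM, PLOD2, a lysyl hydroxylase, 577 CPM and CRTAP, of the prolyl 3-hydroxylation complex, 293 CPM. PLOD2 had a log2 change of −0.92 ± 0.35 with shRARRES2_1 (limma adjusted p = 0.253). Of 14 folding and export genes 0 were called in limma, with medians of −0.03, 0.26 and 0.04. The highest were SPARC, a collagen-binding matrix protein, at 663 CPM, FKBP10, a procollagen chaperone, at 488 CPM and KDELR2, which returns chaperones to the endoplasmic reticulum, at 435 CPM. SPARC was at 668 ± 277 CPM with shGFP, 243 ± 69.0 with shRARRES2_1, 1014 ± 481 with shRARRES2_2 and 725 ± 414 with shRARRES2_3 (F-test unadjusted p = 0.00536, limma adjusted p = 0.209).

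Of 13 trimming and crosslinking genes tested 0 were called in limma, with medians of −0.06, 0.11 and 0.06. TGM2, a transglutaminase, averaged 626 CPM, LOXL2, a lysyl oxidase-like enzyme, 605 CPM, and LOX, the lysyl oxidase that crosslinks collagen, 114 CPM. LOX was at 191, 249.8 and 205 CPM with shGFP, 19.9, 96.7 and 105 with shRARRES2_1, 48.9, 14.0 and 56.7 with shRARRES2_2, and 12.8, 349 and 20.7 with shRARRES2_3. In 8 of 9 hairpin libraries LOX was below every control, and in shRARRES2_3 replicate 2 it was above all of them. Its log2 change for the mean of the hairpins was −2.21 ± 0.83 (limma adjusted p = 0.384), and −2.70 without shRARRES2_3 replicate 2 (limma adjusted p = 0.0346). The second p follows in part from leaving out the library that went against the fall. Over all genes, leaving out 1 library at a time gave 1 to 373 calls for the mean of the hairpins. TLL2, a metalloprotease of the BMP1 and tolloid family named here after its values were seen, was at 7.57, 10.2 and 8.74 CPM with shGFP, 46.8, 34.2 and 31.7 with shRARRES2_1, 76.8, 31.1 and 37.4 with shRARRES2_2, and 32.1, 6.83 and 17.6 with shRARRES2_3. Its libraries with shRARRES2_1 and shRARRES2_2 lay above all controls, with log2 changes of 1.96 ± 0.47 and 2.23 ± 0.47 (limma adjusted p = 0.124 for both). Without shRARRES2_3 replicate 2 the limma adjusted p of TLL2 was 0.0271 and 0.0315, and DESeq2 on all libraries gave 0.00628 and 0.00103. The library left out had the lowest TLL2 level and enters these 2 comparisons only through the estimate of the spread.

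Of 6 collagen-degrading proteases tested 0 were called in limma, with medians of −0.28, −0.23 and −0.32. MMP14, a membrane-bound collagenase, averaged 1178 CPM and MMP2, the gelatinase that it activates, 1116 CPM. MMP1, the interstitial collagenase, was at 1.26, 9.41 and 0.710 CPM with shGFP and at 2.02, 139.8 and 150.3 CPM with shRARRES2_1, where replicates 2 and 3 stood apart from replicate 1. In the 6 libraries of the other hairpins it was at 0.106 to 6.02 CPM. The log2 change of MMP1 with shRARRES2_1 was 3.55 ± 1.28 (limma adjusted p = 0.245), and 5.41 without shRARRES2_1 replicate 1 (limma adjusted p = 0.025). The second fit left out the library of its group with low MMP1 and kept replicates 2 and 3 alone. Their counts were nearly alike (chi-square per degree of freedom 2.95, against at least 64.8 for other pairs of 1 group). They therefore added little as separate libraries, and that p-value cannot stand as a result for the group.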

How the data were processed

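The collagen genes and the lists of related genes and markers were chosen with earlier results of these data known. The labels give total RNA as the molecule. The table deposited by the authors holds 1 signal value per gene and library: CPM scaled by TMM factors. The submitters' processing notes name STAR 2.5.2, Trim Galore 0.6.1, CASAVA, edgeR and the build hg38 (GRCh38), and neither an annotation nor a strand setting is stated. The choice of tests had assumed unscaled CPM, whereas scaling factors of 0.788 to 1.15 were found. Within each library all values were whole multiples of 1 read (100% at a tolerance of 1e-06), which gave the depth. Near 1 CPM counting error is large, and at several CPM it is below the variation among libraries; floors cover counting error only, since molecular identifiers are not mentioned.

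Genes with 1 CPM in at least 3 of 12 libraries were tested as log2(CPM + 1), a scale that understates changes of low genes, with limma 3.58.1 in R 4.3.3: group means only, all 12 libraries, eBayes with a trend, Benjamini-Hochberg adjustment over 15236 genes at 0.05, and a moderated F-test between the 3 hairpins. The step was tested on simulated data, with settings and outcome not given here. Chain ratios other than COL6A3 to COL6A1 had been planned as description only. The exact permutation tests of all chain ratios over libraries were chosen after the values were seen. Levels per kb used merged exon lengths of GENCODE 29, in which 58261 of 58381 identifiers were found; coordinates are GRCh38, 1-based. Collagen classes follow textbook use. Named genes were RARRES2, every expressed collagen gene (values by library for those averaging 10 CPM or with an unadjusted p under 0.01, others where they bear on these), the 3 highest members and any called member of each pathway list, and the 2 highest of each marker list; genes named beyond that were chosen after their values were seen. COLGALT1 was not analysed here. Alternatives covered pseudocounts, filters, a common total, no trend, only the compared groups, a replicate block, edgeR 4.0.16 and DESeq2 1.42.0 on recovered reads, averaging shRARRES2_1 replicates 2 and 3, a threshold of 0.1, leaving out each library and 2 pairs of libraries. The counts of shRARRES2_1 replicates 2 and 3 were far closer than those of other pairs of 1 group (chi-square per degree of freedom 2.95 against at least 64.8). They differed by more than sampling noise and were kept as 2 libraries. The limma and permutation p-values with shRARRES2_1 treat them as separate, though they added little as such.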

Additional observations from a re-analysis of the deposited data

Results flagged for a closer look

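DDR1, the collagen receptor kinase, differed between the 3 hairpins (limma F-test adjusted p = 0.0125), at 72.7 ± 18.7 CPM with the control hairpin, 85.4 ± 1.15 with shRARRES2_1, 61.6 ± 16.4 with shRARRES2_2 and 19.2 ± 1.66 CPM with shRARRES2_3 (SD of 3 libraries). EPAS1, which encodes the hypoxia factor HIF-2 alpha and served here as a marker of 786-O cells, also differed between the hairpins (limma F-test adjusted p = 0.0441). It was at 641 ± 319 CPM with shGFP, 255 ± 20.4 with shRARRES2_1, 86.1 ± 11.8 with shRARRES2_2 and 350 ± 80.1 with shRARRES2_3, and it fell with shRARRES2_2 (log2 change −2.78 ± 0.32, limma adjusted p = 0.0107). Over 27 alternatives the adjusted p of EPAS1 between the hairpins ran from 4.49e-06 to 0.162, and 14 of them lost the call; for DDR1 5 of 27 lost it.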

How the results depend on the processing

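Of 134 counts of collagen genes called under 27 other settings, 124 equalled those first given. With shRARRES2_1 against shGFP, where none was called, 1 (COL11A2) was called with only the compared groups in the fit, 5 (COL5A1, COL6A1, COL6A2, COL11A2 and COL18A1) with DESeq2, and 1 (COL11A2) with replicate 2 of shGFP and of shRARRES2_3 left out. Leaving out 1 library gave 0 to 3; the 3 (COL5A1, COL6A2 and COL11A2) came without shRARRES2_3 replicate 2, and COL11A2 also passed without shRARRES2_3 replicate 1. With shRARRES2_2, DESeq2 called 1 (COL6A2). For the mean of the hairpins DESeq2 called 1 (COL6A2), and leaving out 1 library gave 0 to 1, the call being COL11A2 without shRARRES2_3 replicate 2. Between the hairpins 1 (COL14A1) was called by DESeq2 and with the replicates 2 left out. The cause was not tested. No named collagen gene that passed an unadjusted p of 0.01 turned its sign in any setting.

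The genes of the collagen pathway lists called in other settings, beside DDR1, were TLL2, LOX, MMP1, ITGA2, SPARC, ADAMTS3, MIA2, CTSK and PXDN; DESeq2 called the last 5 of these and no limma setting did. ITGA2, a collagen integrin chain, differed between the hairpins with the replicate block (limma adjusted p = 0.0484), without shRARRES2_1 replicate 1 (0.0189) and with DESeq2 (5.23e-05), against 0.127 in limma on all libraries.

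Over the 15236 expressed genes, limma called 26, 7, 1, 1 and 38 in the 5 comparisons. On the same genes edgeR called 3, 4, 1, 1 and 20, and DESeq2 497, 347, 16, 132 and 590. In limma, leaving out 1 library gave 3 to 241, 1 to 126, 1, 1 to 373 and 0 to 92. With shRARRES2_1 the count was 14 at 5 CPM, 6 on a common total, 13 with no filter, 5 at a pseudocount of 0.1, 64 with only the compared groups, 6 with replicates averaged and 84 at a threshold of 0.1.

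The replicate block called 0 collagen genes in each comparison and 21, 10, 1, 1 and 53 genes in all. Replicate numbers were not shown to pair the libraries as a whole: 11 of 18 pairs with 1 number had a correlation of deviations over 0.1 (range −0.193 to 0.754), and 8 of 12 libraries matched best with their own number. Some libraries were closer to 1 of another group than to their own group. The log2 levels of shGFP replicate 2 correlated at 0.982 with shRARRES2_3 replicate 2, against 0.924 with each other control. Within shRARRES2_1, replicates 2 and 3 correlated at 0.997. The log2 levels of replicate 1 of shRARRES2_1 and of shRARRES2_3 correlated at 0.981, above every correlation of either with a library of its own group. The cause of this likeness across groups was not tested.

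The count of expressed collagen genes was 30 at a minimum of 0.5 CPM, 20 at 5 CPM, and 25 or 26 without 1 library. Collagen genes near 1 CPM rest on few reads, and 3 libraries a group limited which changes could pass.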
